A study of Mus musculus with 9 samples.

Results

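Müller glia are the radial support cells of the retina, and 10 genes that serve their everyday work were followed here in 9 bulk RNA-seq libraries of whole mouse retina. The genes were chosen by symbol for glutamate, potassium, water and lipid handling and for Müller glia identity, and all 10 were found among the 47729 Ensembl genes of the deposited count table. They are Glul, Slc1a3, Aqp4, Kcnj10, Gpr37, Dbi, Car2, Clu, Apoe and Sox9, and all 10 passed the filter on low counts in every comparison.

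The retinas fell into 3 groups of 3 libraries, with C57Bl6/J as the stated strain background throughout. Yap CKO retinas (postnatal day 60) carried Yapflox/flox and Rax-CreERT2, whose Cre needs tamoxifen and is stated by the study to act in Müller cells. Control retinas (postnatal day 60) carried Yapflox/flox without Cre according to the study design, although their genotype label reads Yap CKO, and both of these groups had received 4-hydroxytamoxifen at postnatal day 10. C57 retinas (postnatal day 30) were wild type, came from an earlier series, and have no tamoxifen in their labels. Each library of the age 60 groups held 1 frozen retina. MNU appears in the names of all Yap CKO and control libraries, and no label explains it. No label says whether the 3 retinas of a group came from different animals, so p-values measure the spread between these retinas. One C57 count column carried a retina number that no sample description shares, and it is called the unnumbered C57 library.

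In the retina, Müller glia take up the glutamate that neurons release and turn it into glutamine, carry away potassium and water, buffer acid and carbon dioxide, and supply lipoprotein particles. Glutamate enters through the transporter GLAST (Slc1a3) and is converted by glutamine synthetase (Glul). Potassium leaves through the inward-rectifier channel of Kcnj10 beside the water channel of Aqp4. Under injury these cells become reactive, and loss of their channels and of glutamine synthetase together with a rise of intermediate filaments is a known part of that state.

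The 10 genes split into a group that was much lower in the age 60 retinas than in C57 retinas (Glul, Aqp4, Gpr37 and Kcnj10, with a smaller difference for Slc1a3) and a group that was higher (Sox9 and Clu, and Dbi, which passed in Yap CKO and lay near the threshold in control retinas). Between Yap CKO and control retinas, Dbi alone among the 10 passed the test, at 1.47 times the control level. That edgeR call lay at the threshold (adjusted p = 0.0496) and was lost in 11 of 18 alternative settings. Car2 and Apoe passed in no comparison. The reference promoters of 3 members that were lower together at age 60 (Glul, Kcnj10 and Gpr37) are given first, side by side. They are RefSeq windows on GRCm38.p6, from 250 bases before to 50 bases after an annotated start site, written 5′ to 3′ on the strand of the gene, with GC boxes (GGGCGG on either strand) in capitals.
Glul, chr1:153899679-153899978, plus strand: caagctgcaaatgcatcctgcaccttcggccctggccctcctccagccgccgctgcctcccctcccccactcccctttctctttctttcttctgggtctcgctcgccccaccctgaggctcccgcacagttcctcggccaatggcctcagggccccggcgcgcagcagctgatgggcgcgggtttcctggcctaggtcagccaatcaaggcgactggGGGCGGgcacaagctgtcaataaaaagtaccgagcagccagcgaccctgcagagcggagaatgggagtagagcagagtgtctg
Kcnj10, chr1:172340960-172341259, plus strand: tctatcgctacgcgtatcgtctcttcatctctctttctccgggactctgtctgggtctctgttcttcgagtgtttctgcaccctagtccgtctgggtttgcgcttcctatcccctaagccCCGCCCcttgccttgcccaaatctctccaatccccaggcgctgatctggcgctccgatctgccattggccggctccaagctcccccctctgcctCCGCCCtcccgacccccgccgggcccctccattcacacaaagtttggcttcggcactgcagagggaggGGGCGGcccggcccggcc
Gpr37, chr6:25689931-25690230, minus strand: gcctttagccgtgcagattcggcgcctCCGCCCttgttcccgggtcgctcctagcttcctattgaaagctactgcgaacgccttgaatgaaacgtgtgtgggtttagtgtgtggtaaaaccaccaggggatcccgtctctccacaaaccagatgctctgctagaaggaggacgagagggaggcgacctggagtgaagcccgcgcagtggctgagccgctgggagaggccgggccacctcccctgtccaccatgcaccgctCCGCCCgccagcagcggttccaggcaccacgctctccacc
The Glul window held 1, the Gpr37 window 2 and the Kcnj10 window 3, and 35.7% of all 32851 windows held at least 1. The Gpr37 window lies inside the annotated gene (chr6:25665878-25690729), so it is not DNA upstream of the whole gene. Of the 10 genes 6 had windows, 9 in all, and 4 of the 9 held a GC box. The core of the TEAD motif (GGAATG, either strand), the DNA partner site of Yap, was in 1 of the 9 windows, at Apoe, and in 14.7% of all windows. A SOX core (AACAAT, either strand) was in 0 of the 9 and in 10.7% of all, and a STAT-type palindrome (TTCNNNGAA) was in 1 of the 9, at Slc1a3, and in 8.30% of all. A TATA box (TATAAA, either strand) was in 2 of the 9, at Apoe on both strands and at Slc1a3 on the opposite strand, and in 13.6% of all. These are matches of letters in a short window and not sites of binding.

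Total counts were 34739679 to 37629264 in the 6 age 60 libraries and 13760765 to 16808499 in the C57 libraries, and the smallest count of any of the 10 genes in a library was 200. Yap1, the deleted gene, stood at 15.2, 21.4 and 24.0 CPM in Yap CKO 1, 2 and 3, at 66.3, 60.4 and 56.9 CPM in control 1, 2 and 3 and at 23.9 to 31.1 CPM in C57. Rod markers differed widely between libraries: the summed level of 20 rod genes was 1916 to 27650 CPM in Yap CKO, 5469 to 26130 CPM in control and 129700 to 149200 CPM in C57 retinas. Reactive gliosis genes (17 genes) summed to 4486 to 5265 CPM in Yap CKO, 4495 to 4878 CPM in control and 333 to 448 CPM in C57. Behind the similar sums of Yap CKO and control, single genes differed by log2 -1.28 to 1.07. Of the 17, 7 leaned higher and 10 lower in Yap CKO, and 1 passed as lower, against 0.181% of all genes. Lens transcripts (15 genes) summed to 1367 CPM in Yap CKO 3 and to at most 32.2 CPM in any other library. Ciliary epithelium markers (12 genes) summed to 175 to 190 CPM in Yap CKO, 228 to 354 CPM in control and 165 to 171 CPM in C57. Their sums did not overlap between Yap CKO and control, although 0 of the 11 tested genes passed there. Yap CKO 3 and the 3 controls carried Y-linked transcripts (116 to 133 CPM), as did C57 2 (162 CPM), whereas Xist was present in the remaining 4 libraries, Yap CKO 1, Yap CKO 2, C57 1 and the unnumbered C57 library (138 to 207 CPM). Genotype and sex were therefore partly confounded. The part of rod content, lens RNA, ciliary RNA and sex in the results was not tested. Values given within 1 sex or at a fixed rod level are the only exceptions.

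Normalized counts are in CPM, scaled by the trimmed mean of M-values (TMM) over the 9 libraries. Log2 fold changes, standard errors (SE) and adjusted p come from edgeR's quasi-likelihood test with Benjamini-Hochberg adjustment over all genes, fitted on the 6 libraries of a comparison, and a gene is said to pass at an adjusted p under 0.05. In whole retina, fewer cells of a type and less RNA per cell cannot be told apart.

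**Figure D1:**
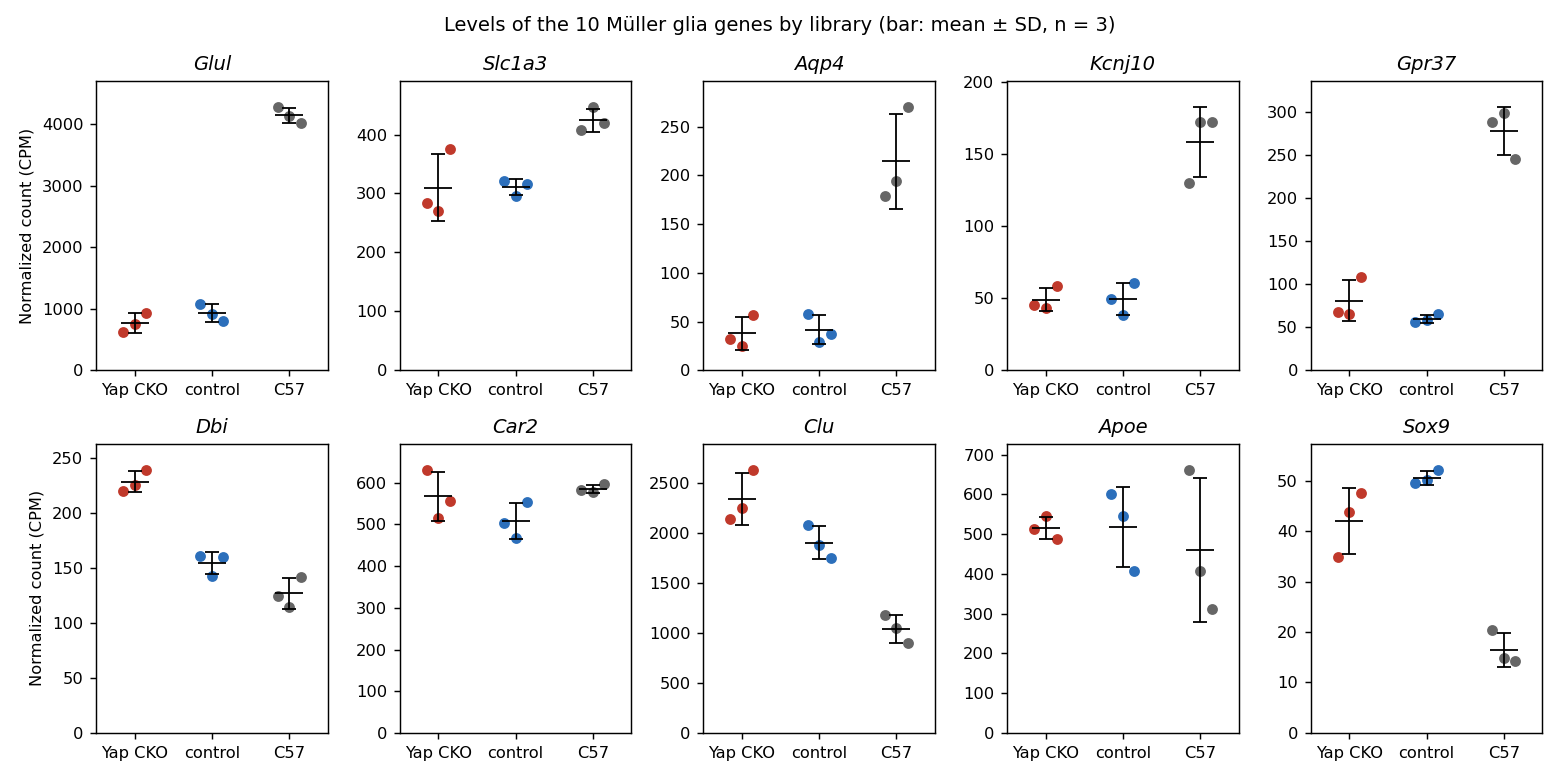
Normalized counts (CPM, linear axis from 0) of the 10 genes in each library, in 1 panel per gene, with Yap CKO on the left, control in the middle and C57 on the right. Points are libraries and bars are the mean ± SD of 3. Glul, Aqp4, Kcnj10 and Gpr37 sit far below C57 in both age 60 groups, Sox9 and Clu sit above it, and Dbi is higher in the 3 Yap CKO libraries (221 to 239 CPM) than in any other.

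Between Yap CKO and control retinas, the comparison that asks what the loss of Yap in Müller cells changes, 1 of the 10 genes rose, 0 fell and 9 did not pass. Over all 16539 genes tested, 0.0181% rose, 0.181% fell and 0.2% passed in either direction (3, 30 and 33 genes). Without adjustment, 3 of the 10 genes had an edgeR p under 0.05 (Dbi and Clu higher, Sox9 lower), against 17.8% of all genes (8.59% higher, 9.25% lower). By DESeq2 1 of the 10 passed (Dbi, higher), against 6.16% of the 14924 genes with an adjusted p (2.41% higher, 3.75% lower). The median log2 fold change of the 10 was -0.0097, beside 0.0113 over all genes tested. The libraries of both groups did not overlap for 4 of the 10 genes (Dbi, Clu and Gpr37 higher, Sox9 lower), against 25.3% of all genes (13.5% higher, 11.8% lower).

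Dbi encodes the diazepam-binding inhibitor, a small acyl-CoA-binding protein that is also the precursor of peptides acting on GABA receptors and on the mitochondrial protein TSPO. It lies on chromosome 1 (120113280 to 120121078, minus strand, GRCm38). Its level was 221, 226 and 239 CPM in Yap CKO 1, 2 and 3, against 161, 143 and 160.4 CPM in control 1, 2 and 3. Every Yap CKO library was above every control library. The means were 229 ± 9.62 CPM in Yap CKO and 155 ± 10.2 CPM in control retinas (SD, n = 3 each), a log2 fold change of 0.56 (SE 0.0733, adjusted p = 0.0496), and Dbi ranked 22nd of 16539 genes by p.
The direction of Dbi held in all 18 alternatives (log2 0.51 to 0.62), while its call, close to the threshold, was lost in 11 of them. It was lost when any 1 of the control libraries, Yap CKO 1 or Yap CKO 2 was left out (adjusted p = 0.0875 to 0.207) and among males, where Yap CKO 3 stands alone against the controls (log2 0.62, with that lone library assumed to vary like the controls). It held without Yap CKO 3 (log2 0.52, adjusted p = 0.0139), where 656 genes were called higher and 817 lower. Any fit without Yap CKO 3 sets Yap CKO libraries with Xist against controls with Y-linked transcripts, so sex and genotype cannot be told apart. The Dbi call also held with the rod level as a covariate (log2 0.55, adjusted p = 0.00669), where 743 genes were called higher and 880 lower. The main fit called 3 higher and 30 lower. None of the 10 genes was in the authors' deposited table of 305 genes, whose smallest absolute log2 fold change was 0.587.

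Clu encodes clusterin, a secreted chaperone carried on lipoprotein particles, and Gpr37 a G protein-coupled receptor for which prosaposin has been proposed as a ligand. Clu had 2145, 2247 and 2631 CPM in Yap CKO 1, 2 and 3, against 2085, 1878 and 1752 CPM in control 1, 2 and 3. The log2 difference was 0.29 (SE 0.102, adjusted p = 0.195). The groups did not overlap, but Yap CKO 1 and control 1 were only a small step apart.
Gpr37 had 68.1, 65.4 and 108 CPM in Yap CKO 1, 2 and 3, against 56.0, 58.9 and 64.9 CPM in control 1, 2 and 3. Yap CKO 3 stood well above the other two Yap CKO libraries, which lay close to control 3. The log2 difference was 0.42 (SE 0.205, adjusted p = 0.348), and it was 0.15 without Yap CKO 3 (adjusted p = 0.257) and 0.84 for Yap CKO 3 alone against the controls, all male, where a lone library has no spread of its own.

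Sox9, the transcription factor that marks and maintains Müller glia, leaned the other way. It had 34.85, 43.7 and 47.6 CPM in Yap CKO 1, 2 and 3, against 49.5, 50.1 and 52.1 CPM in control 1, 2 and 3. The 3 controls were tightly grouped, and all Yap CKO libraries were below them. The log2 difference was -0.27 (SE 0.115, adjusted p = 0.274). Sox9 passed with the rod level as a covariate (log2 -0.32, adjusted p = 0.0451). That fit called 743 genes higher and 880 lower, against 3 and 30 in the main fit. The log2 difference was -0.15 without Yap CKO 1, the lowest library, and -0.094 for Yap CKO 3 alone against the controls, all male.
Glul, which encodes glutamine synthetase, had 618, 759 and 931 CPM in Yap CKO 1, 2 and 3, against 1083, 922 and 796 CPM in control 1, 2 and 3. The groups overlapped, and Yap CKO 1 was the lowest library. The log2 difference was -0.28 (SE 0.169, adjusted p = 0.434). It was -0.14 without Yap CKO 1, -0.17 without control 1, -0.44 without Yap CKO 3 (adjusted p = 0.15) and -0.011 among males, with Yap CKO 3 as the lone library of its group.

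The remaining 5 genes showed no difference beyond the spread of their libraries. Log2 differences were -0.0090 for Slc1a3 (SE 0.125), -0.14 for Aqp4 (SE 0.416), -0.016 for Kcnj10 (SE 0.19), 0.16 for Car2 (SE 0.0976) and -0.010 for Apoe (SE 0.136), with adjusted p from 0.45 to 0.985. The sign of Slc1a3, Aqp4, Kcnj10 and Apoe turned in some of the alternatives. For Aqp4 the libraries ranged from 24.5 to 57.1 CPM in Yap CKO and from 29.1 to 57.8 CPM in control retinas, the widest spread among the 10 genes relative to the level.
Yap CKO 3, the library with the fewest rod and the most lens transcripts, had the highest level in its group for 8 of the 10 genes. The exceptions were Car2, highest in Yap CKO 1, and Apoe, highest in Yap CKO 2. Among the controls, control 1, which had the most rod transcripts, was highest for 6 genes and control 3 for 4.

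**Figure D2:**
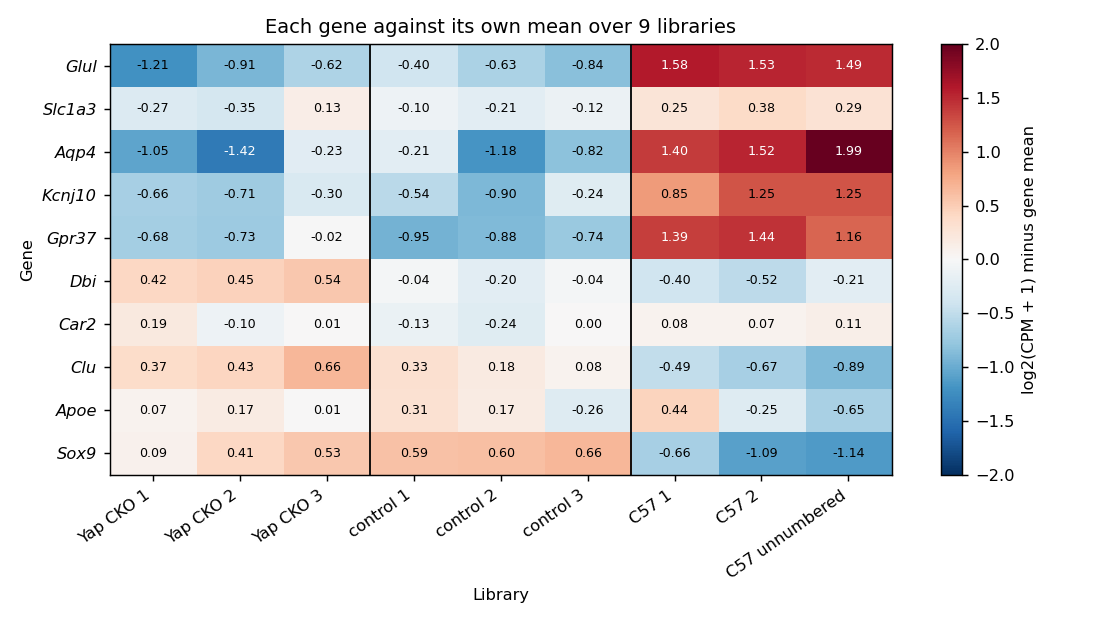
Level of each gene in each library as log2(CPM + 1) minus the gene's mean over the 9 libraries, with genes in rows and libraries in columns (Yap CKO, control, C57), red above and blue below the mean. Glul runs from -1.21 in Yap CKO 1 to 1.58 in C57 1, Sox9 runs the other way, and Yap CKO 3 has the highest value of its group for 8 genes.

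The comparison of control with C57 retinas sets floxed, tamoxifen-injected retinas at postnatal day 60 against wild-type retinas at postnatal day 30 from another series. The effects of age, floxed allele, tamoxifen, source and anything that MNU stands for cannot be told apart. In it, 5 of the 10 genes fell (Glul, Aqp4, Gpr37, Kcnj10 and Slc1a3), 2 rose (Sox9 and Clu) and 3 did not pass. Over all 15820 genes tested, 22.4% fell, 23.1% rose and 45.5% passed in either direction. The median log2 fold change of the 10 was -0.31, beside 0.0318 over all genes. Their libraries did not overlap for 9 of the 10 genes (6 lower, 3 higher), against 58.8% of all genes (29.4% in each direction). Without adjustment 8 had a p under 0.05 (5 lower, 3 higher), against 53.6% of all genes (26.3% lower, 27.3% higher).
In Yap CKO against C57 retinas, a comparison that shares the C57 libraries with the one before, 5 of the 10 genes fell, 3 rose (Sox9, Clu and Dbi) and 2 did not pass. Over all 15840 genes tested, 20.2% fell, 20.3% rose and 40.5% passed in either direction. The median of the 10 was -0.25, beside 0.0165 over all genes, and libraries did not overlap for 8 of the 10 genes (5 lower, 3 higher), against 55% of all genes (27.1% lower, 27.9% higher). Without adjustment the same counts had a p under 0.05, against 50.2% of all genes (24.9% lower, 25.3% higher).

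Among the genes of glutamate handling, the enzyme and the transporter differed in size of change. Glul had 618 to 931 CPM in Yap CKO and 796 to 1083 CPM in control retinas, against 4276, 4135 and 4022 CPM in C57 1, C57 2 and the unnumbered C57 library. The lowest C57 library was thus far above the highest age 60 library, and the C57 libraries were closely alike. The log2 fold change was -2.42 for Yap CKO (SE 0.182, adjusted p = 5.35e-05) and -2.13 for control against C57 (SE 0.156, adjusted p = 6.27e-05). Glul (chromosome 1, 153899944 to 153909723, plus strand) shares 116 of its 3323 exon bases with Teddm2 on the other strand. It also shares 93 with Mir8114 on the same strand, which no strand setting would separate. A small part of the Glul counts is therefore uncertain, and the strand setting of the counting is not given.
Slc1a3, which encodes the glutamate transporter GLAST, had 284, 269.6 and 375 CPM in Yap CKO 1, 2 and 3 and 321, 296 and 316 CPM in control 1, 2 and 3, against 408, 446 and 419 CPM in the C57 libraries. All age 60 libraries were lower than all C57 libraries, with Yap CKO 3 the nearest to them. The log2 fold change was -0.45 for Yap CKO (SE 0.153, adjusted p = 0.0445) and -0.43 for control against C57 (SE 0.0988, adjusted p = 0.00917). The 2 calls were lost when libraries were scaled by total counts alone (log2 -0.088 and -0.081), a scaling that moved the median of all genes up by 0.362 and 0.35. The control call was also lost without C57 2 (adjusted p = 0.0542) or control 2 (0.0528), and the Yap CKO call without C57 2 (0.154), the unnumbered C57 library (0.0626), Yap CKO 1 (0.144) or Yap CKO 2 (0.18) and among females (0.0933), with upper-quartile scaling (0.0726) and without a count filter (0.0842).
A ratio within a library does not depend on the scaling. The CPM of Glul divided by that of Slc1a3 was 2.17, 2.82 and 2.48 in Yap CKO 1, 2 and 3 and 3.38, 3.12 and 2.52 in control 1, 2 and 3, against 10.5, 9.27 and 9.60 in the C57 libraries. Glul was thus lower relative to Slc1a3 in every age 60 library.

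The genes of potassium and water handling were both far below C57. Kcnj10, the inward-rectifier potassium channel of the Müller cell membrane, had 45.05, 43.4 and 58.1 CPM in Yap CKO 1, 2 and 3 and 49.3, 38.1 and 60.4 CPM in control 1, 2 and 3, against 130.3, 172 and 172 CPM in the C57 libraries. Its log2 fold change was -1.69 for Yap CKO (SE 0.173, adjusted p = 0.000232) and -1.66 for control against C57 (SE 0.193, adjusted p = 0.000427).
Aqp4, the water channel of the glial endfeet, had 31.9, 24.5 and 57.1 CPM in Yap CKO 1, 2 and 3 and 57.8, 29.1 and 37.6 CPM in control 1, 2 and 3, against 179, 194 and 269.9 CPM in the C57 libraries. Its age 60 libraries spread over more than 2-fold and still lay below every C57 library. The log2 fold change was -2.50 for Yap CKO (SE 0.32, adjusted p = 0.000743) and -2.35 for control against C57 (SE 0.273, adjusted p = 0.000426). Within males, the 3 controls against C57 2 alone, the Aqp4 value was -2.21 and did not pass (adjusted p = 0.0529, with that lone library assumed to vary like the controls). Retinal astrocytes also express Aqp4, and Pax2, a marker that separates them from Müller glia, was at 0.296 to 1.99 CPM in all 9 libraries. The 8 astrocyte markers, with Aqp4 and the reactive gliosis gene Gfap among them, summed to 724 to 803 CPM in Yap CKO, 381 to 549 CPM in control and 289 to 397 CPM in C57 retinas, with no marker at 0. Their mean log2(CPM + 1) overlapped between Yap CKO (3.76 to 4.11) and control (3.73 to 4.01). Between these groups 4 markers were higher and 4 lower, and 0 passed. The part of astrocytes in the result was not tested.
Gpr37 had 246 to 299 CPM in the C57 libraries, against the 65.4 to 108 CPM in Yap CKO and 56.0 to 64.9 CPM in control retinas given above. Its log2 fold change was -1.78 for Yap CKO (SE 0.209, adjusted p = 0.000433) and -2.19 for control against C57 (SE 0.122, adjusted p = 2.06e-05).

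Of the genes that were higher at age 60, Sox9 moved most. It had 34.85 to 47.6 CPM in Yap CKO and 49.5 to 52.1 CPM in control retinas, against 20.3, 14.8 and 14.2 CPM in the C57 libraries. The log2 fold change was 1.36 for Yap CKO (SE 0.19, adjusted p = 0.000951) and 1.65 for control against C57 (SE 0.152, adjusted p = 0.000164). It therefore rose while Glul, Aqp4, Kcnj10 and Gpr37 fell in the same libraries, and it did so at a low level per length.
Clu had 2145 to 2631 CPM in Yap CKO and 1752 to 2085 CPM in control retinas, against 1183, 1047 and 899 CPM in the C57 libraries. The log2 fold change was 1.17 for Yap CKO (SE 0.161, adjusted p = 0.000891) and 0.89 for control against C57 (SE 0.146, adjusted p = 0.00201). Clusterin is made by several cell types, and its source in whole retina was not tested.
Dbi had 125, 115 and 142 CPM in the C57 libraries, against 221 to 239 CPM in Yap CKO and 143 to 161 CPM in control retinas. The log2 fold change was 0.85 for Yap CKO (SE 0.128, adjusted p = 0.00135) and 0.30 for control against C57 (SE 0.117, adjusted p = 0.0664). The control value lay near the threshold and passed in 5 of 16 alternatives, among them total-count scaling (log2 0.65, adjusted p = 0.00189), 9 libraries in 1 fit (log2 0.28, 0.0496) and the fit without the unnumbered C57 library (log2 0.39, 0.0165). The lowest control value lay just above the highest C57 value, while all Yap CKO libraries were well above both groups.

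Car2 and Apoe showed no called difference. Car2, which encodes the cytosolic carbonic anhydrase that handles carbon dioxide, had 631, 515 and 557 CPM in Yap CKO 1, 2 and 3 and 503, 467 and 553 CPM in control 1, 2 and 3, against 582, 578 and 597 CPM in the C57 libraries. Its log2 differences from C57 were -0.040 for Yap CKO (adjusted p = 0.823) and -0.19 for control (adjusted p = 0.196), and their sign turned with total-count scaling.
Apoe encodes apolipoprotein E, a protein of glial lipoprotein particles. It had 512, 545.5 and 488.5 CPM in Yap CKO 1, 2 and 3. Control 1, 2 and 3 had 602, 545 and 406.5 CPM. The values were 661, 408 and 311 CPM in C57 1, C57 2 and the unnumbered C57 library. The C57 libraries spanned the range of all the others. The log2 differences from C57 were 0.17 for Yap CKO (SE 0.25, adjusted p = 0.614) and 0.19 for control (SE 0.275, adjusted p = 0.591), and both passed without C57 1 (log2 0.52 and 0.55, adjusted p = 0.0214 and 0.0422). In the same C57 order, 5 red blood cell genes summed to 210, 119 and 23.1 CPM, beside 6.88 to 15.2 CPM in the age 60 libraries. Microglia also express Apoe, and 14 microglia and macrophage markers summed to 126 to 178 CPM in Yap CKO, 130.5 to 150.2 CPM in control and 119 to 135 CPM in C57 retinas, with no marker at 0. The part of these cells in the Apoe level was not tested.

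**Figure D3:**
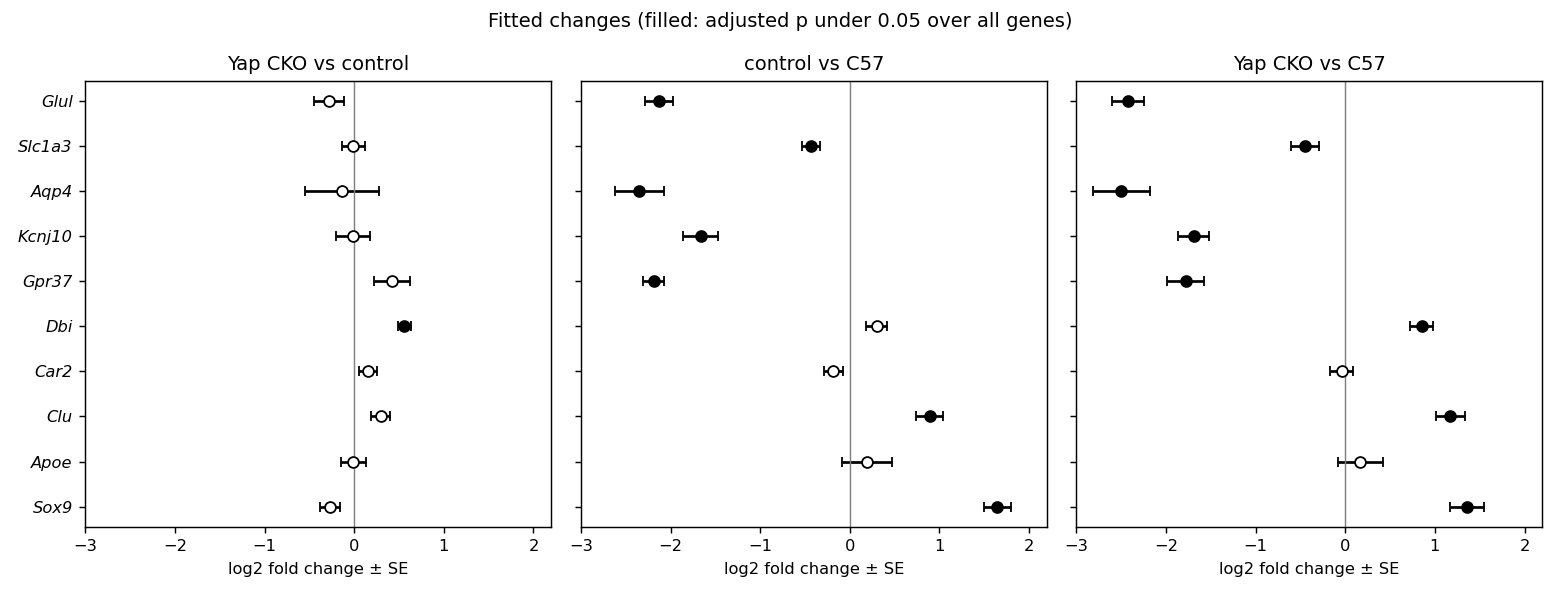
Log2 fold changes of the 10 genes (points) with their SE (bars) in the 3 comparisons, Yap CKO against control on the left, control against C57 in the middle and Yap CKO against C57 on the right. Filled points passed at an adjusted p under 0.05. Against C57, values reach from -2.50 (Aqp4) to 1.65 (Sox9), and against control only Dbi is filled, at 0.56.

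The order of the 10 genes by level changed with the group. On a scale corrected for exon length (RPKM), Glul led in C57 retinas at 1247, which placed it 16th of 14716 protein-coding genes, with Clu next at 303. Clu led in Yap CKO at 681 RPKM and in control retinas at 554 RPKM, where it ranked 14th and 16th, while Glul stood at 232 and 281 RPKM and ranked 81st and 53rd. In Yap CKO retinas Apoe (241 RPKM), Car2 (234) and Glul (232) could not be ordered, since their libraries overlapped from one to the next. In control retinas Glul overlapped Apoe and Apoe overlapped Car2, while every Glul library was above every Car2 library.
Dbi came after Clu, Glul, Apoe and Car2 and before Slc1a3 in all 3 groups. At the lower end, Sox9 was last in C57 retinas at 3.98 RPKM, without overlap with the gene above it, whereas Aqp4 was last in Yap CKO (6.07 RPKM) and control retinas (6.66 RPKM), with libraries that overlapped those of Kcnj10 (9.04 and 9.11 RPKM). Together the 10 genes held 4590 to 5493 CPM in Yap CKO, 4198 to 4968 CPM in control and 7092 to 7852 CPM in C57 libraries, a sum that Glul and Clu dominate.

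**Figure D4:**
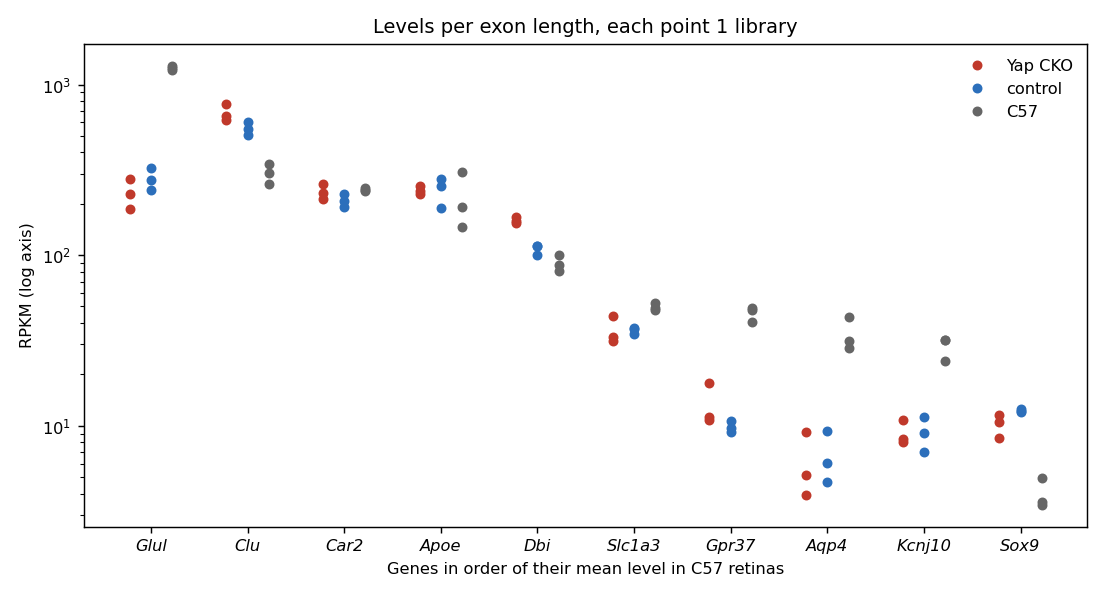
Level per exon length (RPKM, log axis) of the 10 genes in each library, ordered by their mean in C57 retinas, with Yap CKO left, control in the middle and C57 right of each gene. Glul averages 232 RPKM in Yap CKO and 281 RPKM in control retinas, below Clu in both, and leads in C57 at 1247 RPKM, and Sox9 is near Kcnj10 and Gpr37 at age 60 and last in C57 at 3.98 RPKM.

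Genes whose profile over the 9 libraries was most like a member were found by the mean absolute difference of log2(CPM + 1), each gene centred on its own mean, among 11380 candidates. The nearest were Fam98b for Slc1a3 (0.0402), Bend3 for Sox9 (0.0548), Cep78 for Car2 (0.0573), Slc7a8 for Clu (0.0722), Fam174b for Dbi (0.0733) and Ucp2 for Apoe (0.082). For the members that were much lower at age 60 the nearest genes lay farther off: Lrrc66 for Kcnj10 (0.143), Rpl21 for Gpr37 (0.195), Kcne2 for Glul (0.21) and Gulp1 for Aqp4 (0.257). Rpl21 belongs to a family with near-identical copies, so its counts are uncertain. The closest profile within the 10 genes was Aqp4 for Glul (0.277, the 18th nearest gene) and Gpr37 for Kcnj10 (0.23, the 41st). It was Car2 for Slc1a3 (0.185, the 2384th) and Clu for Dbi (0.218, the 411th). Places ran from the 3rd, Glul for Aqp4, to the 5488th, Car2 for Apoe.

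Genes with related functions were read from 6 lists. In Yap CKO against control retinas none of their 68 genes passed by edgeR, so the values that follow are from the genes with the smallest p. Without adjustment, 13 of the 68 had an edgeR p under 0.05, beside 17.8% of all genes tested. Among transporters of glutamate, glutamine and GABA (10 genes), the glutamine carrier Slc38a5 was at 3.51 ± 0.505 CPM in Yap CKO and 2.36 ± 0.391 CPM in control retinas (log2 0.57, adjusted p = 0.179), and Slc38a3 and Slc6a11 were at log2 -0.12 and -0.089. Among 14 genes of potassium and water handling the median log2 fold change was -0.27. Utrn, a utrophin that anchors membrane channels, and Cav1 were at log2 -0.28 and -0.36 (adjusted p = 0.171 and 0.279). In the 9 genes of pH and lactate handling, Slc4a4, Car3 and Slc9a3r1 were at log2 -0.25, -0.36 and 0.16 (adjusted p = 0.274 to 0.396).
In the lipid list (15 genes), the fatty acid-binding protein gene Fabp5 was at 66.7 ± 14.5 CPM in Yap CKO and 40.0 ± 4.54 CPM in control retinas (log2 0.73, adjusted p = 0.108), the acyl-CoA-binding gene Acbd3, a relative of Dbi, at log2 -0.22 (0.132) and Lcat at log2 0.59 (0.17). The authors' deposited comparison gave Fabp5 a log2 fold change of 0.739 and, by their own test, an adjusted p of 0.00555. Near Gpr37, the proposed ligand gene Psap was at log2 0.034 and the paralog Gpr37l1 at log2 0.53 (adjusted p = 0.875 and 0.293), and Park7 was at log2 0.23 (0.126). Of 18 identity factors and Müller glia markers, Id1 was at log2 0.55, the peroxiredoxin Prdx6 at log2 0.30 and Col9a1 at log2 -0.88 (adjusted p = 0.127 to 0.151). Rlbp1, which encodes the retinaldehyde-binding protein of Müller glia and marks these cells in the retina, was present in every library at 234 to 823 CPM. The upper end of this range belongs to C57 retinas. A set of 11 pigment epithelium markers that includes Rlbp1 summed to 332 to 558 CPM in Yap CKO and 442 to 525 CPM in control retinas. The sum was 1177 to 1254 CPM in C57.

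Against C57 retinas the same lists held changes in both directions, with percentages over all genes as given above. Of the 10 transporter genes, 4 fell and 2 rose in Yap CKO, and 4 fell and 1 rose in control retinas. Slc38a3, the glutamine exporter that works after Glul, was at 199.8 ± 34.9 CPM in Yap CKO and 217 ± 27.9 CPM in control, against 722 ± 148 CPM in C57 (log2 -1.85 and -1.71, adjusted p = 0.000255 and 0.000238). Slc7a11, the cystine-glutamate exchanger, was at 68.1 ± 30.8 CPM in control against 8.13 ± 1.76 CPM in C57 (log2 3.08, adjusted p = 0.000571). Of 13 tested genes of potassium and water handling, 5 fell and 1 rose in Yap CKO, and 4 fell and 5 rose in control. Dmd, whose protein dystrophin anchors Kcnj10 and Aqp4 channels at glial membranes, was at 19.1 ± 4.95 CPM in control against 126 ± 31.9 CPM in C57 (log2 -2.70, adjusted p = 0.000151), and the pump subunit Atp1b2 was at log2 -1.16 (adjusted p = 0.00221).
Of the 9 genes of pH and lactate handling, 5 fell and 1 rose in Yap CKO, and 4 fell and 1 rose in control. Car14, the membrane-bound carbonic anhydrase of Müller glia, was at 21.1 ± 6.80 CPM in control against 133 ± 2.77 CPM in C57 (log2 -2.63, adjusted p = 0.000135), while Car2, the cytosolic form, did not pass. The lactate carrier Slc16a1 was at log2 -1.36 (adjusted p = 0.000186). In the lipid list 4 genes fell and 5 rose in either age 60 group, with the transporter Abca8a at 39.5 ± 6.93 CPM in control against 436 ± 80.0 CPM in C57 (log2 -3.44, adjusted p = 2.24e-05) and Fabp7 at log2 -2.10 (0.00129). Of the 18 identity genes, 4 fell and 5 rose in Yap CKO and 5 of each in control. Sox2, another glial SOX factor, was at 83.7 ± 2.28 CPM in control against 19.3 ± 0.82 CPM in C57 (log2 2.14, adjusted p = 1.41e-05), and the intermediate filament gene Vim had a log2 fold change of 3.14 (1.56e-05). None of the 3 genes around Gpr37 passed in either comparison (0 at an unadjusted p under 0.05 by edgeR).
All 20 rod genes were lower in every age 60 library than in any C57 library, 20 of them called in control and 12 in Yap CKO. Reactive gliosis genes were higher, with 15 of 17 called in Yap CKO and 17 of 17 in control. The part of rod loss or gliosis in the levels of the 10 genes was not tested.

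**Figure D5:**
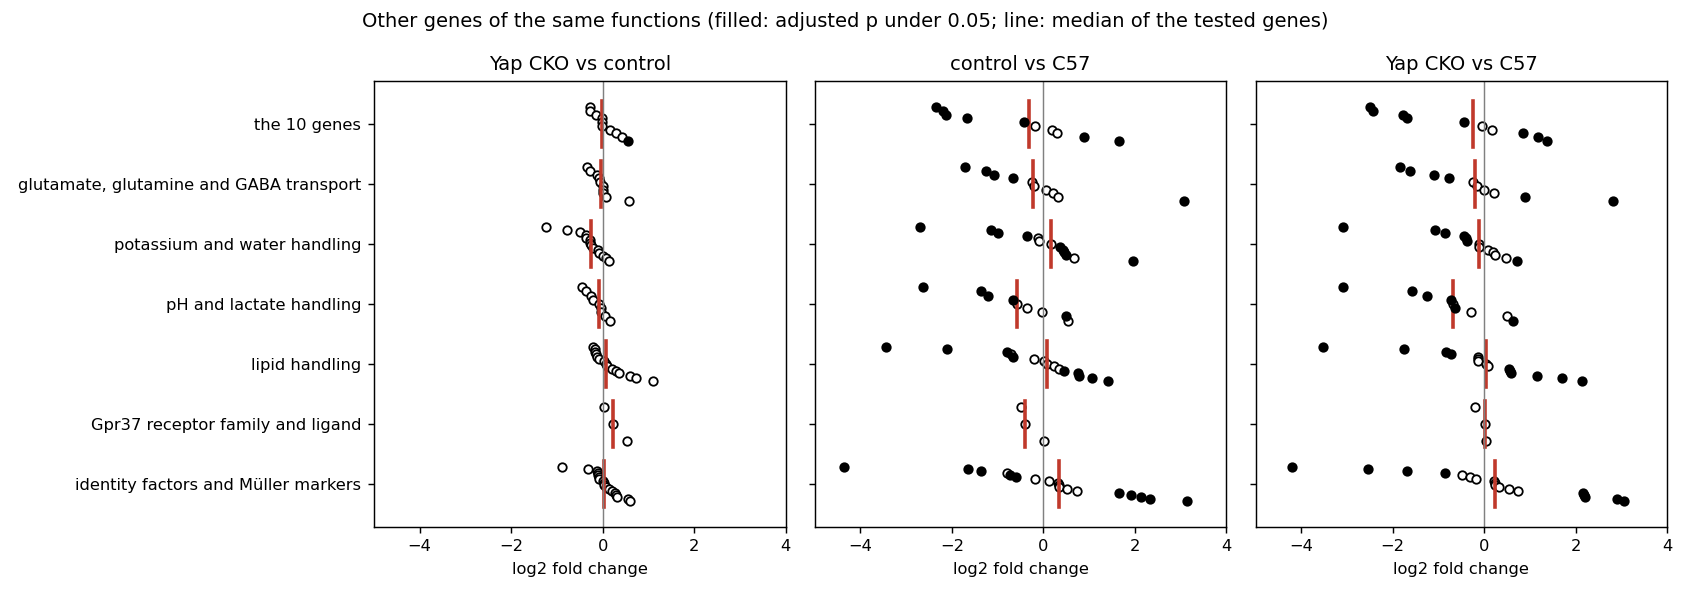
Log2 fold changes of the 10 genes and of the genes of 6 related lists (rows) in the 3 comparisons, with filled points for an adjusted p under 0.05 and a red line at the median of the tested genes. In Yap CKO against control Dbi is the only filled point, while against C57 each list but that around Gpr37 holds filled points on both sides of 0.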

How the data were processed

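Whole retina RNA was sequenced in 9 libraries. HISAT2 2.1.0, featureCounts, edgeR and GRCm38 are listed in the submitters' processing notes, and the labels' protocols give a directional library from 1 µg of RNA. For the annotation and the strand setting, nothing is given in the sources used here. The authors deposited whole-number read counts per Ensembl gene, not normalized. The authors' deposited comparison table gives log2 fold changes and p-values per gene, per the file headers, and its 9 columns of values per library were not used.

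Symbols and positions came from GENCODE M21 (GRCm38), which holds 47310 of the 47729 identifiers. After filterByExpr (10 counts, total of 15) and TMM scaling, robust quasi-likelihood F-tests were run in edgeR 4.0.16 under R 4.3.3, on the 6 libraries of each of the 3 comparisons. The SE is the coefficient divided by the root of F. RPKM used the union of annotated exons. Simulated counts with known fold changes served to check the script. Chi-square per degree of freedom between libraries of 1 group was 24.2 to 144, so no library was a repeat of another.

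The 10 genes, the lists and the rules were chosen with earlier results of these data known. The genes named from each related list are the 3 with the smallest p in Yap CKO against control and the 2 in control against C57. 1 gene that this rule names and 1 promoter are not reported here. Outside it, Yap1, Rlbp1, Pax2, Xist, Teddm2 and Mir8114 were named as checks after their values were seen. Alternatives were RLE, upper-quartile and total-count scaling, no filter, at least 1 CPM in 3 libraries as the filter, limma-voom (limma 3.58.1), DESeq2 1.42.0, 9 libraries in 1 fit, a threshold of 0.10, a replicate block, a rod level covariate and leaving out each library. Fits within 1 sex were added after seeing the data.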

Additional observations from a re-analysis of the deposited data

How the results depend on the processing

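Glul, Gpr37, Kcnj10, Clu and Sox9 against C57 kept direction and call in all 16 alternatives of both comparisons. Against control, Dbi kept its direction in 18 of 18 and its call in 7. It was not called with RLE scaling, the filter of 1 CPM in 3 libraries, limma-voom, 9 libraries in 1 fit or the replicate block, which each left 0 of the 10 genes higher (1 to 0 when single libraries were left out), and the rod covariate added 1 lower. With the replicate block Dbi was at log2 0.56 (adjusted p = 0.0557). Same-numbered libraries correlated at 0.534, -0.0793 and 0.00942 in their deviations from group means. With 3 libraries per group, these values cannot decide whether the numbers pair the retinas.

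Counts of all genes (higher and lower) for Yap CKO against control, 3 and 30 in the report, were 1 and 14 with RLE scaling, the CPM filter or limma-voom, 14 lower with upper-quartile scaling, 83 and 260 without a filter, 360 and 559 by DESeq2, 57 lower with 9 libraries in 1 fit, 113 and 257 at an adjusted p under 0.10, 743 and 880 with the rod covariate, 27 and 17 within males, and 0 to 656 and 0 to 817 without single libraries. For control against C57 they were 6864 and 1937 with total-count scaling, and 2546 to 4832 and 2493 to 4423 without single libraries. For Yap CKO against C57 they were 6367 and 1594 with total-count scaling, 1430 and 1326 within females, and 2007 to 4234 and 1881 to 3779 without single libraries. Total-count scaling moved the median of all genes by 0.35 and 0.362 and no filter by 0.161 and 0.217 on the log2 scale in the comparisons with C57. Total-count scaling leaves out the TMM factors, which over the 9 libraries were 0.838 to 0.848 in C57 and 1.048 to 1.125 at age 60. What lies behind the difference in these factors, and behind the shift without a filter, was not tested.

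Signs turned for genes that did not pass. Against control, upper-quartile scaling gave log2 0.0337 for Slc1a3, 0.0284 for Kcnj10 and 0.0301 for Apoe. Apoe was at 0.00586 with limma-voom, 0.0061 with the replicate block and 0.00209 with the rod covariate. Within males Slc1a3 was at 0.265, Aqp4 at 0.454 and Kcnj10 at 0.232. Without single libraries Slc1a3 ranged from -0.173 to 0.0743, Aqp4 from -0.563 to 0.169, Kcnj10 from -0.17 to 0.157 and Apoe from -0.159 to 0.101. Against C57, Car2 was at 0.164 in control and 0.321 in Yap CKO with total-count scaling, and in Yap CKO at 0.0128 with upper-quartile scaling, 0.0203 without a filter and -0.114 to 0.0317 without single libraries. Apoe ranged from -0.021 to 0.55 in control and from -0.0503 to 0.522 in Yap CKO without single libraries. Fits within 1 sex rest on a lone library in 1 arm for the males, assumed to vary like the others.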
